A study of Mus musculus with 8 samples.

Results

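The genes described here are those of heterotrimeric G proteins and of the RGS proteins that switch them off, 42 genes of the 9229 in a table of cluster markers from mouse dorsal root ganglion cells. They were taken by symbol: 12 of the 13 Gα genes looked for, Gnb1 to Gnb5 for Gβ, 10 Gγ genes named Gng with a digit, and 15 genes named Rgs with a digit, of which 14 code for RGS proteins and Rgs7bp for an anchoring protein. Sensory neurons of trunk and limbs have their cell bodies in these ganglia. The ganglia were collected from C57BL/6 mice of 21 to 30 days, and 4 mice were pooled per sample. Living dissociated cells were exposed for 30 min to an antibody against the proteasome subunit β5 and for 40 min to a fluorescent second antibody, then sorted by fluorescence as NMP-positive or NMP-negative. NMP stands for neuronal membrane proteasome, a proteasome exposed at the surface of neurons.

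The labels list 4 NMP-positive and 4 NMP-negative samples, which their descriptions name as sequencing lanes of 1 library each. All groups share the strain, the dissociation and the antibody labelling, and the protocol cites a procedure for nuclei, so it is not settled whether cells or nuclei were loaded. The deposited values carry no sample: they compare each of 20 clusters with all other cells of both populations together. No comparison of NMP-positive with NMP-negative cells was therefore possible, and there was no replicate. The table gives a log2 fold change, a p-value and the percentage of cells with a transcript, for the cluster and for the rest. It gives no number of cells and no depth per cell, so the depth behind each percentage is unknown.

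A heterotrimeric G protein consists of a Gα subunit, which binds GTP, and a Gβγ dimer, and it carries the signal of a ligand-bound receptor into the cell. Gαs and Gαolf raise cyclic AMP, Gαi, Gαo and Gαz oppose this, and Gαq, Gα11 and Gα14 activate phospholipase C. Gα12 and Gα13 form a class of their own. RGS proteins speed up GTP hydrolysis by Gα and so end the signal. In sensory neurons these proteins stand behind the receptors for prostaglandins, opioids, histamine and itch-inducing peptides.

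In what follows, a gene is called higher or lower in a cluster when its deposited adjusted p-value was under 0.05, with a positive or a negative log2 fold change against all other cells. Those p-values treat cells as units and the clusters were defined on the same cells, so they served as a filter and not as evidence from replicates. The 10 clusters with a neuronal name held 40.8% of the cells, the 3 clusters named Low.UMI 28.6% and the 7 named Unknown 30.7%, as solved from the deposited fractions. The labels call the tissue neurons, but by markers the Unknown clusters were non-neuronal. Unknown.1 was endothelial-like (8 of 8 markers higher), Unknown.2 satellite-glia-like (8 of 8), Unknown.3 mural-like (6 of 7, Rgs5 left out), Unknown.4 Schwann-cell-like (8 of 8), Unknown.5 and Unknown.6 fibroblast-like (8 of 8 in each) and Unknown.488p macrophage-like (10 of 10). All 8 general neuron markers were lower in each of the 7, but their transcripts were still found there, from 1.4% of cells for Syn1 to 71.8% for Uchl1 in the authors' deposited table.

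Of the 42 genes, 38 were higher in at least 1 cluster, 31 were lower in at least 1 and 29 were both. A gene is in the table only if it is listed for at least 1 cluster. The same counts over all 9229 genes were not made, so these do not set the 42 apart. Gna12 and Gnai3 were listed but called nowhere. The table held 388 of the 840 possible pairs of gene and cluster, and 342 of these were called. For all 9229 genes it held 56694 pairs. Over all cells, a transcript was found in 0.786% for Rgs1, the rarest, and 95.5% for Gnas, the most frequent. A pair that is not listed was not read as absence of the transcript. In the 10 named neuron clusters 86 of 420 pairs were higher (20.5%) and 46 were lower (11%), where 10.9% and 6.72% of all gene and cluster pairs were. In the 7 Unknown clusters 27 of 294 pairs were higher (9.18%) and 135 were lower (45.9%), against 10.2% and 27.1% over all genes. In the 3 Low.UMI clusters 17 of 126 pairs were higher (13.5%) and 31 lower (24.6%), against 10.9% and 20.6%. Over the listed pairs, the log2 fold change had a median of 0.29 for these genes and 0.26 for all genes in the neuron clusters, -0.32 and -0.30 in the Low.UMI clusters, and -0.72 and -0.36 in the Unknown clusters. By role, the Unknown clusters held 0 higher and 13 lower of 14 pairs for Gnal and Gnas, 0 and 21 of 35 for Gβ, 13 and 14 of 70 for Gγ, and 6 and 26 of 49 for RGS genes of the R4 family.

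**Figure D1:**
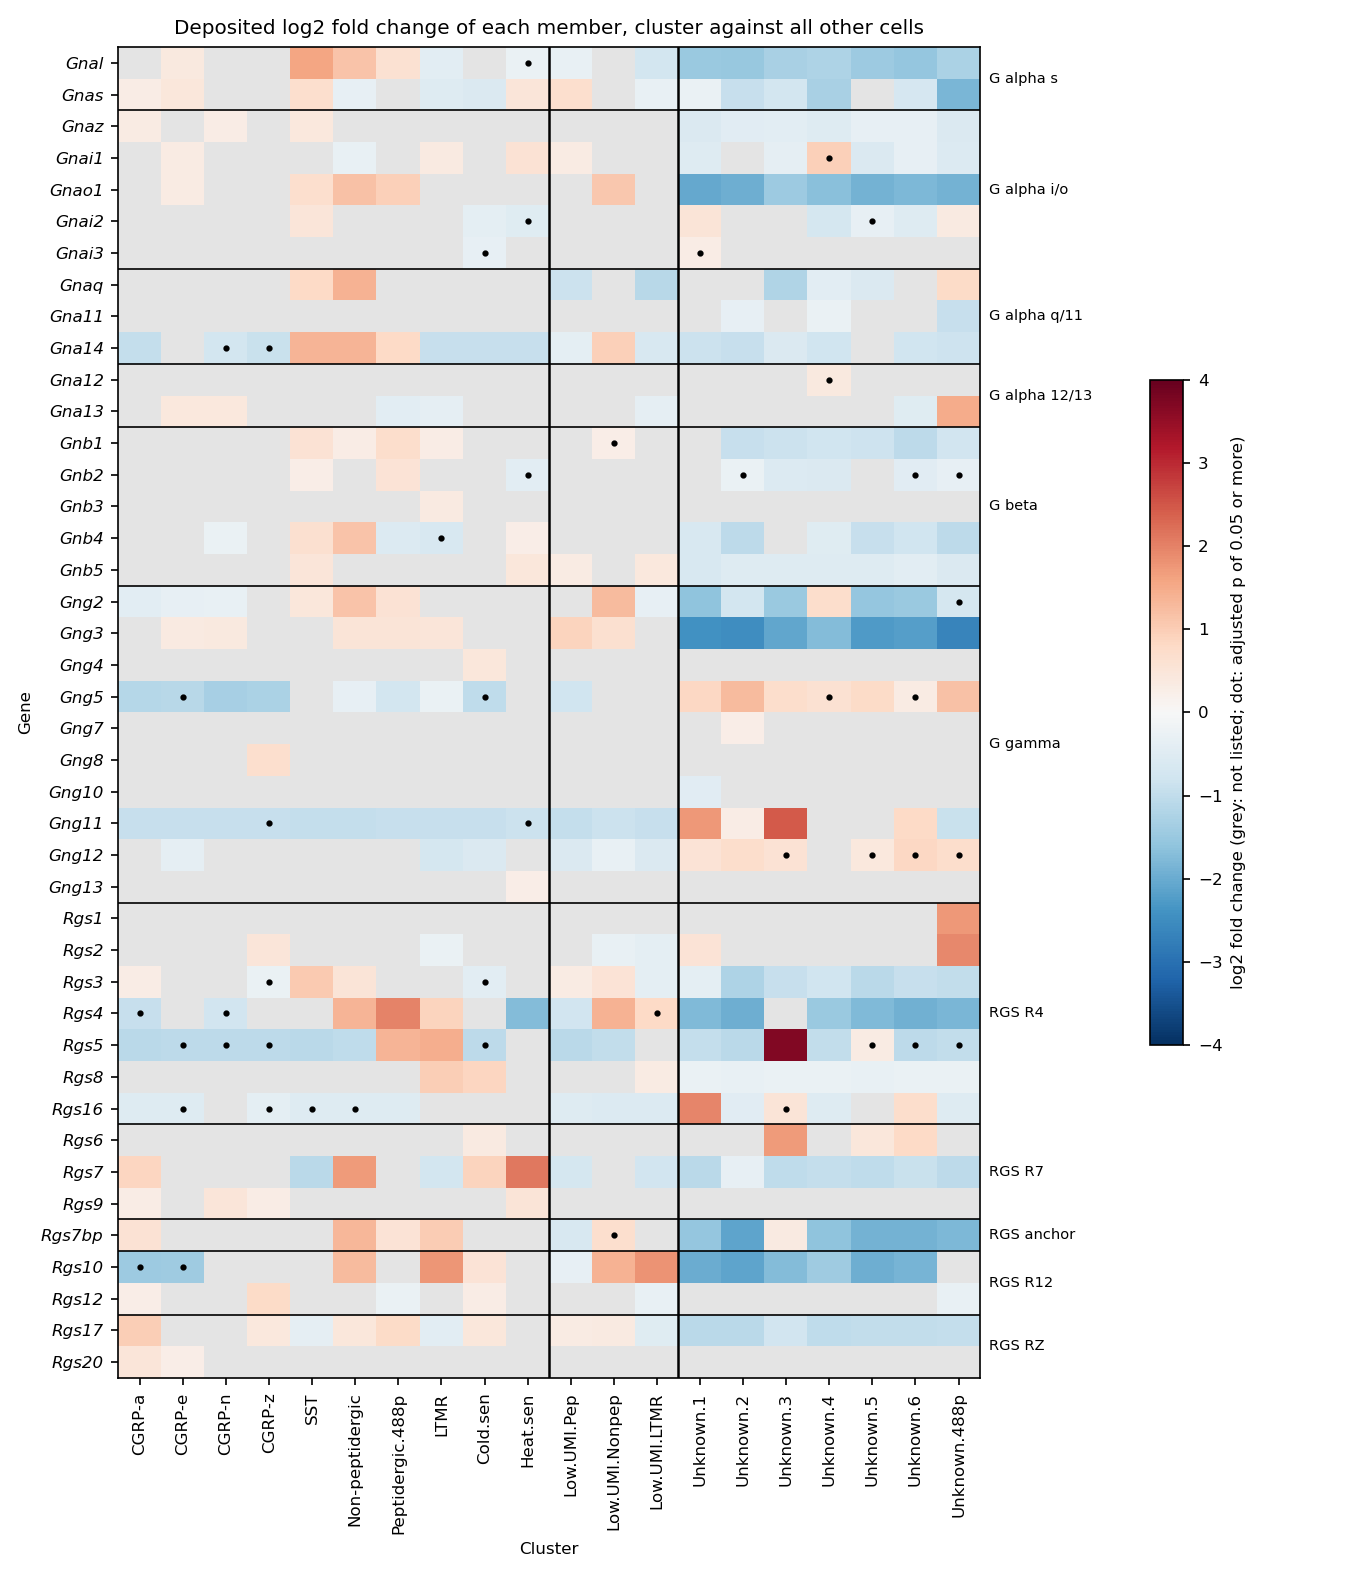
Log2 fold change from the authors' deposited table for the 42 genes (vertical axis, grouped by role) in the 20 clusters (horizontal axis), each against all other cells; grey cells are not listed and dots mark an adjusted p of 0.05 or more. The largest value is that of Rgs5 in Unknown.3 (3.72), and the 7 Unknown columns on the right are mainly blue.

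Cluster by cluster, the share of these genes that was higher stood furthest above that of all genes in Non-peptidergic, SST and Peptidergic.488p. Non-peptidergic had 14 of 42 higher (33.3%, against 9.86% of all genes) and 5 lower (11.9% against 9.71%). SST had 13 higher (31% against 12.5%) and 4 lower (9.52% against 10.7%). Peptidergic.488p had 11 higher (26.2% against 7.05%) and 6 lower (14.3% against 13.8%). SST is the usual short name of somatostatin, a peptide found in sensory neurons known for itch. LTMR, the low-threshold mechanoreceptors that serve touch, was the named neuron cluster with most members lower, with 9 higher (21.4% against 12.5%) and 10 lower (23.8% against 8.46%). Of these 10, only 3 were also detected in a smaller share of LTMR cells than of other cells. By that stricter count Peptidergic.488p had 6 lower and CGRP-a 4, so LTMR did not rank first by number. The share of all genes under the stricter count was not worked out, so these numbers have no background.

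CGRP-a had 9 higher (21.4% against 12.5%) and 6 lower (14.3% against 7.26%), and CGRP-e had 7 higher (16.7% against 9.77%) and 3 lower (7.14% against 5.65%). CGRP-n had 4 higher and 4 lower (9.52% each, against 9.61% and 4.32%), and CGRP-z had 5 higher (11.9% against 11.3%) and 1 lower (2.38% against 0.715%). In CGRP-n and CGRP-z the higher share was thus about that of all genes. Cold.sen had 7 higher (16.7% against 11%) and 5 lower (11.9% against 5.44%), and Heat.sen had 7 higher (16.7% against 12.6%) and 2 lower (4.76% against 1.18%).

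Among the Low.UMI clusters, Low.UMI.Pep had 6 higher (14.3% against 10.8%) and 12 lower (28.6% against 20.7%). Low.UMI.Nonpep had 8 higher (19% against 10.9%) and 5 lower (11.9% against 21%), and Low.UMI.LTMR had 3 higher (7.14% against 10.9%) and 14 lower (33.3% against 20.1%). In each of the 7 Unknown clusters a larger share of these genes than of all genes was lower. The counts were 19 in Unknown.1 (45.2% against 28.8%), 20 in Unknown.2 (47.6% against 27.4%), 17 in Unknown.3 (40.5% against 28.4%) and 22 in Unknown.4 (52.4% against 26.4%). They were 17 in Unknown.5 (40.5% against 20.4%), 20 in Unknown.6 (47.6% against 25.5%) and 20 in Unknown.488p (47.6% against 33%). Higher genes numbered 6 in Unknown.1 (14.3% against 18%), 4 in Unknown.2 (9.52% against 13%), 5 in Unknown.3 (11.9% against 8.05%) and 1 in Unknown.4 (2.38% against 5.21%). They numbered 2 in Unknown.5 (4.76% against 9.67%), 3 in Unknown.6 (7.14% against 7.39%) and 6 in Unknown.488p (14.3% against 9.91%).

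**Figure D2:**
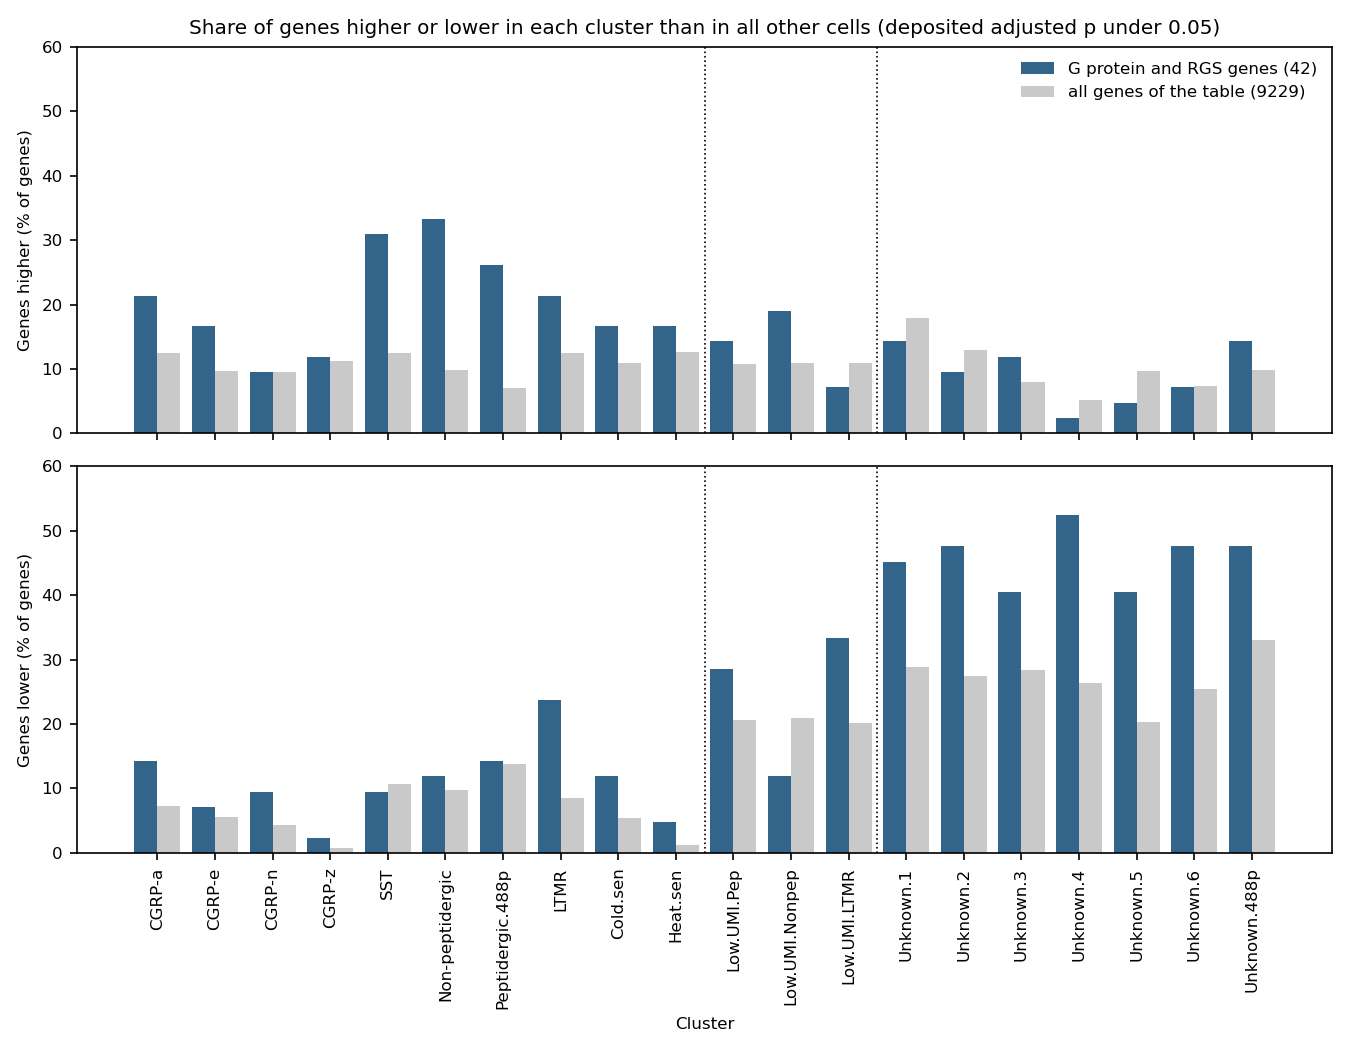
Percentage of genes higher (top) or lower (bottom) in each cluster than in all other cells, for the 42 G protein and RGS genes (blue, left bar) and all 9229 genes of the table (grey, right bar). The blue bar stands above the grey one for higher genes in Non-peptidergic (33.3% and 9.86%) and for lower genes in each Unknown cluster.

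The stimulatory Gα class has Gnal and Gnas. Gnal codes for Gαolf, the form first known from smell. In the authors' deposited table Gnal was higher in SST (log2 fold change 1.57), Non-peptidergic (1.14), Peptidergic.488p (0.61) and CGRP-e (0.39), with transcripts in 61.9 to 100% of their cells. It was lower in LTMR (-0.42), although 99.7% of LTMR cells against 46.4% of other cells had a transcript in the authors' deposited table. It was also lower in all 7 Unknown clusters, from -1.54 in Unknown.6 to -1.24 in Unknown.4 in the authors' deposited table, and in 3.5 to 10.7% of their cells. Low.UMI.LTMR (-0.74) and Low.UMI.Pep (-0.29) were lower as well in the authors' deposited table. Gnas, the gene of the ubiquitous Gαs, had a different order. It was higher in Low.UMI.Pep (0.68), SST (0.66), Heat.sen (0.49), CGRP-e (0.45) and CGRP-a (0.29) in the authors' deposited table. Lower values stood in Cold.sen (-0.59), LTMR (-0.51) and Non-peptidergic (-0.32), and the lowest in Unknown.488p (-1.82) and Unknown.4 (-1.31), in the authors' deposited table. Further lower calls were Unknown.2 (-0.92), Unknown.3 (-0.74), Unknown.6 (-0.67), Low.UMI.LTMR (-0.31) and Unknown.1 (-0.27) in the authors' deposited table. By fold change, Gnal and Gnas thus differed in direction in Non-peptidergic cells, and both were higher in SST cells. Yet Gnas was in 99.8% of Non-peptidergic cells and 100% of LTMR and Cold.sen cells, each against 95.3% of other cells. Its lower calls in Unknown.1, Unknown.2, Unknown.3 and Unknown.6 also went against detection, with 97.2 to 99.3% of cells against 95.1 to 95.5%.

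Of the inhibitory class, Gnao1 codes for Gαo, the abundant Gα of neurons. It was higher in Non-peptidergic (1.18), Low.UMI.Nonpep (1.06), Peptidergic.488p (0.97), SST (0.67) and CGRP-e (0.33) in the authors' deposited table. In the 7 Unknown clusters it was lower, from -2.05 in Unknown.1 to -1.44 in Unknown.3, and in 8.2 to 27.7% of cells in the authors' deposited table. Gnaz, whose product Gαz resists pertussis toxin, was higher in SST (0.43), CGRP-a (0.33) and CGRP-n (0.29) and lower in all 7 Unknown clusters (-0.59 to -0.34), with 0.0% of Unknown.488p cells in the authors' deposited table. The Gαi genes were split. Gnai1 was higher in Heat.sen (0.57), LTMR (0.35), Low.UMI.Pep (0.32) and CGRP-e (0.31) and lower in 5 Unknown clusters (-0.57 to -0.32) and Non-peptidergic (-0.30) in the authors' deposited table. Detection of Gnai1 went against these calls in Low.UMI.Pep (13.9% of cells against 47% of other cells) and Non-peptidergic (87.9% against 39.9%). Gnai2, an abundant Gαi of immune cells, was higher in Unknown.1 (0.52), SST (0.48) and Unknown.488p (0.37) and lower in Cold.sen (-0.39), Unknown.6 (-0.50) and Unknown.4 (-0.71) in the authors' deposited table. Yet 98.8% of Cold.sen cells had a Gnai2 transcript, against 73.5% of other cells. Gnai2 was present in 74.6% of all cells, Gnai1 in 42.4% and Gnai3 in 49.4%.

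Among the Gα genes, Gna14 of the phospholipase C class had the widest range of called fold changes over the named neuron clusters. Gna14, which codes for Gα14, was found in 99.8% of Non-peptidergic cells against 20.2% of other cells and in 96.5% of SST cells against 19.9% in the authors' deposited table. Its log2 fold changes were 1.37 in SST, 1.34 in Non-peptidergic, 0.95 in Low.UMI.Nonpep and 0.81 in Peptidergic.488p (58.4% of cells) in the authors' deposited table. In the other neurons listed it was rare: 3.1% of Heat.sen, 7.6% of Cold.sen, 8.2% of CGRP-a and 14.2% of LTMR cells, with fold changes from -0.96 to -0.92 in the authors' deposited table. CGRP-n (21.1%) and CGRP-z (11.2%) had values of -0.74 and -0.91 in the authors' deposited table that did not pass the filter. In 6 Unknown clusters it was lower (-0.91 to -0.57), in 1.8 to 9.7% of cells, as in Low.UMI.LTMR (-0.64) and Low.UMI.Pep (-0.38), in the authors' deposited table.

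Gnaq, the gene of Gαq, was higher in Non-peptidergic (1.38, 100% of cells), SST (0.81) and the macrophage-like Unknown.488p (0.77, 82.9%) in the authors' deposited table. Lower values stood in Unknown.3 (-1.20), Low.UMI.LTMR (-1.12), Low.UMI.Pep (-0.87), Unknown.5 (-0.57) and Unknown.4 (-0.42) in the authors' deposited table. Gna11, the close relative of Gnaq, was listed for 3 clusters and was lower in each: Unknown.488p (-0.93), Unknown.2 (-0.33) and Unknown.4 (-0.26) in the authors' deposited table. Gna13, which codes for Gα13, was highest in Unknown.488p, at 1.47 and in 68.5% of its cells against 45.8% of other cells in the authors' deposited table. It was also higher in CGRP-e and CGRP-n (0.41 each) and lower in Unknown.6 (-0.47), Peptidergic.488p (-0.43), Low.UMI.LTMR and LTMR (-0.37 each) in the authors' deposited table. Yet 88.7% of LTMR cells had a Gna13 transcript, against 44.5% of other cells. Gna12 was listed once, in Unknown.4 (0.39, not past the filter) in the authors' deposited table.

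Among the Gβ genes, Gnb4 had the largest called value, 1.14 in Non-peptidergic, and was also higher in SST (0.65) and Heat.sen (0.28) in the authors' deposited table. It was lower in Peptidergic.488p (-0.55), in CGRP-n (-0.27) and in 6 Unknown clusters (-1.06 to -0.47) in the authors' deposited table. Yet 97.3% of CGRP-n cells had a Gnb4 transcript, against 48.7% of other cells. Gnb1, a broadly expressed Gβ gene, was higher in Peptidergic.488p (0.70), SST (0.57), Non-peptidergic (0.30) and LTMR (0.29) and lower in 6 Unknown clusters (-1.04 to -0.77) in the authors' deposited table. Gnb2 was higher in Peptidergic.488p (0.53) and SST (0.27) and lower in Unknown.4 (-0.57) and Unknown.3 (-0.56) in the authors' deposited table. Gnb5 codes for the Gβ that pairs with RGS proteins of the R7 family in place of Gγ. It was higher in SST (0.48), Heat.sen (0.46), Low.UMI.LTMR (0.42) and Low.UMI.Pep (0.34), and lower in all 7 Unknown clusters (-0.63 to -0.43), in the authors' deposited table. Yet the share of cells with Gnb5 was smaller than outside in Low.UMI.LTMR (16.1% against 44.9%) and Low.UMI.Pep (16.2% against 48.6%). Gnb3, known from cone photoreceptors and taste cells, was listed for LTMR alone. It was in 80.3% of LTMR cells against 1.5% of other cells, at a log2 fold change of 0.37 in the authors' deposited table.

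Several Gγ genes differed in direction between neuronal and non-neuronal clusters. Gng3, a neuronal Gγ gene, was higher in Low.UMI.Pep (0.88), Low.UMI.Nonpep (0.64), Non-peptidergic and Peptidergic.488p (0.52 each), LTMR (0.47), CGRP-n (0.38) and CGRP-e (0.37) in the authors' deposited table. All 7 Unknown clusters had it lower, from -2.64 in Unknown.488p to -1.74 in Unknown.4, and in 11 to 29.1% of their cells in the authors' deposited table. The percentages of the 8 neuron markers summed to 167.9 in Unknown.488p, where Gng3 was rarest, and to between 223.3 and 258.5 in the other 6. The part that neuronal transcripts had in these values was not tested.

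By fold change, Gng11, Gng5 and Gng12 ran the other way. Gng11, which codes for a farnesylated Gγ found widely outside the nervous system, was higher in the mural-like Unknown.3 (2.46, 85.1% of cells), the endothelial-like Unknown.1 (1.73, 76.7%), Unknown.6 (0.80, 51.8%) and Unknown.2 (0.28, 46.3%) in the authors' deposited table. It was in 0.0 to 5.3% of the cells of the 13 neuron and Low.UMI clusters, with fold changes from -0.97 to -0.86 in the authors' deposited table, and the values of CGRP-z and Heat.sen did not pass the filter. Unknown.488p was the non-neuronal cluster in which it was lower (-0.88, 2.1% of cells) in the authors' deposited table. Gng5 was higher in Unknown.2 (1.27), Unknown.488p (1.17), Unknown.1 (0.83), Unknown.5 (0.77) and Unknown.3 (0.71) in the authors' deposited table. It was lower in CGRP-n (-1.33), CGRP-z (-1.26), CGRP-a (-1.15), Low.UMI.Pep (-0.80), Peptidergic.488p (-0.74), Non-peptidergic (-0.34) and LTMR (-0.27), in the authors' deposited table. Yet Gng5 was in 100% of LTMR, 97.6% of Non-peptidergic and 74.5% of CGRP-a cells, against 60%, 59.6% and 60.5% of other cells. Its share was near that of other cells in CGRP-n (61.7% against 61.6%) and CGRP-z (60.7% against 61.6%). In Peptidergic.488p (39.4% against 62.2%) and Low.UMI.Pep (11.8% against 69.7%) it was smaller. Gng12 was higher in Unknown.2 (0.71) and Unknown.1 (0.54) and lower in LTMR (-0.71), Cold.sen (-0.59), CGRP-e (-0.35) and the 3 Low.UMI clusters (-0.58 to -0.30) in the authors' deposited table. In CGRP-e, 75.1% of cells had a Gng12 transcript, against 36.8% of other cells. Its share was smaller than outside in LTMR (16.8% against 39.5%), Cold.sen (29.9% against 39%) and the Low.UMI clusters (3 to 7.1%).

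Gng2, a widely used Gγ gene, was higher on both sides. It was higher in Low.UMI.Nonpep (1.26), Non-peptidergic (1.15), Peptidergic.488p (0.58) and SST (0.46), and also in the Schwann-cell-like Unknown.4 (0.70, 61.6% of cells against 59.6%), in the authors' deposited table. Low.UMI.LTMR (-0.33), CGRP-n (-0.31), CGRP-e (-0.33) and CGRP-a (-0.43) had lower values, as had 5 other Unknown clusters (-1.60 to -0.73), in the authors' deposited table. In CGRP-n, CGRP-e and CGRP-a, 98.3 to 98.9% of cells had a Gng2 transcript, against 56.5 to 58.1% of other cells. Low.UMI.LTMR had it in 21.3% against 60.8%, and Low.UMI.Nonpep, although called higher, in 53.3% against 60.5%. The remaining Gγ genes were each listed for 1 cluster. Gng8 was in 70.1% of CGRP-z cells against 7.9% of other cells (0.67), Gng4 in 56.1% of Cold.sen cells against 11% (0.44) and Gng13 in 38.8% of Heat.sen cells against 3.3% (0.27) in the authors' deposited table. Gng7 was in 13.5% of Unknown.2 cells against 7.5% (0.27), and Gng10 was lower in Unknown.1 (-0.44, 10.8% of cells against 46.8%), in the authors' deposited table.

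**Figure D3:**
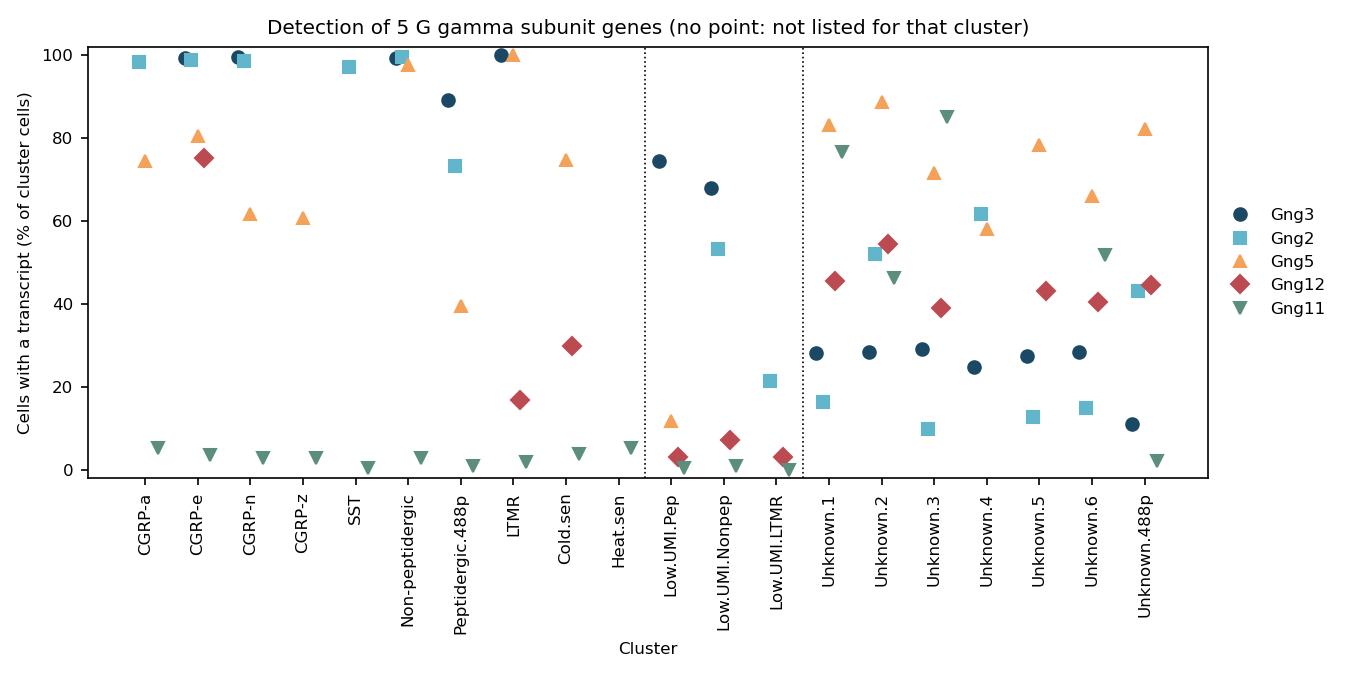
Percentage of cells with a transcript (vertical axis) of 5 Gγ genes in each cluster (horizontal axis), from the authors' deposited table; a gene without a point is not listed for that cluster. Gng11 lies at or under 5.3% in all neuron and Low.UMI clusters and reaches 85.1% in Unknown.3, while Gng3 lies at or under 29.1% in the 7 Unknown clusters.

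The RGS genes of the R4 family, most of which code for small proteins with little outside the RGS domain, included the largest value of the whole set. Rgs5, known as a gene of pericytes, was at 3.72 in the mural-like Unknown.3, in 62.3% of its cells against 10.4% of other cells in the authors' deposited table. It was also higher in 2 named neuron clusters: LTMR had 1.44 with 99.7% of cells against 8.7%, and Peptidergic.488p had 1.35 with 61.0% against 10.8%, in the authors' deposited table. Of the 6 other mural markers found in the table, 0 were higher in LTMR or in Peptidergic.488p by the deposited adjusted p. The remaining clusters listed had Rgs5 in 0.7 to 23.1% of cells, and the 8 lower calls among them lay between -1.09 and -0.96, in the authors' deposited table. Of these calls, only that of Non-peptidergic went against detection, with Rgs5 in 23.1% of its cells against 11.7% of other cells.

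Rgs4, a regulator abundant in neurons, was highest in Peptidergic.488p (1.98), followed by Low.UMI.Nonpep (1.39), Non-peptidergic (1.36) and LTMR (0.88) in the authors' deposited table. Its lowest value among neurons was in Heat.sen, at -1.73 and in 52.0% of cells against 57.2% of other cells in the authors' deposited table. Rgs4 was lower in Low.UMI.Pep (-0.78) and 6 Unknown clusters (-1.95 to -1.49) and was not listed for Unknown.3 in the authors' deposited table. Rgs3 was led by SST (1.06), with Low.UMI.Nonpep (0.54), Non-peptidergic (0.53), Low.UMI.Pep (0.32) and CGRP-a (0.29) also higher in the authors' deposited table. Yet Rgs3 was in a smaller share of cells than outside in Low.UMI.Nonpep (31.4% against 53.7%) and Low.UMI.Pep (25.3% against 55.3%). It was lower in Low.UMI.LTMR (-0.40) and in all 7 Unknown clusters, from -1.25 in Unknown.2 to -0.40 in Unknown.1, in the authors' deposited table.

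In the authors' deposited table Rgs8 was higher in LTMR (0.98, 100% of cells against 19.7%), Cold.sen (0.85, 81.7% against 20.2%) and Low.UMI.LTMR (0.33, 7.8% against 23.3%). The authors' deposited table gave 0.5 to 1.7% of cells for it in the 7 Unknown clusters. Rgs16 was higher in the endothelial-like Unknown.1 (1.96, 61.0% of cells against 9.0%) and in Unknown.6 (0.71, 28.4% against 13.5%) and was called higher in no neuron cluster in the authors' deposited table. It was not absent from neurons: CGRP-z had it in 28% of cells against 13.6%, at -0.38, which did not pass the filter. The other named neuron clusters listed had Rgs16 in 3 to 10% of cells. Its 8 lower calls lay between -0.56 and -0.46, in CGRP-a, Peptidergic.488p, the 3 Low.UMI clusters, Unknown.2, Unknown.4 and Unknown.488p, in the authors' deposited table. Rgs2, a regulator that prefers Gαq, was at 1.92 in Unknown.488p (59.6% of cells against 19.8%), 0.54 in Unknown.1 and 0.49 in CGRP-z (78.5% against 19.8%) in the authors' deposited table. Lower calls of Rgs2 were Low.UMI.LTMR (-0.40), Low.UMI.Nonpep (-0.29) and LTMR (-0.28) in the authors' deposited table. In LTMR, however, the share of cells with Rgs2 was larger than outside (42.1% against 19.7%). Rgs1, a gene of immune cells, was listed for Unknown.488p alone, at 1.74 and in 37.0% of cells against 0.1% in the authors' deposited table.

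R7 family proteins form stable pairs with Gβ5 and are held at the membrane by Rgs7bp. Rgs7 went both ways among the neuron clusters. It was higher in Heat.sen (2.11, 100% of cells), Non-peptidergic (1.72, 100%), Cold.sen (0.90, 95.6%) and CGRP-a (0.87, 97.9%) in the authors' deposited table. Rgs7 was lower in SST, at -1.09 and in 7.2% of cells against 38.4% of other cells, and in LTMR, at -0.73 but in 71.2% against 35.2%, in the authors' deposited table. All 7 Unknown clusters were lower, from -1.07 to -0.32, as were Low.UMI.LTMR (-0.77) and Low.UMI.Pep (-0.69), in the authors' deposited table. Rgs9 was higher in Heat.sen (0.52), CGRP-n (0.49), CGRP-z (0.31) and CGRP-a (0.29), in 66.3 to 73.8% of their cells, in the authors' deposited table. Rgs6 was higher in 3 Unknown clusters and 1 neuron cluster, with 1.69 in Unknown.3 (49.1% of cells against 2.9%), 0.78 in Unknown.6 and 0.45 in Unknown.5, and with 0.36 in Cold.sen (12.8% against 4.2%), in the authors' deposited table.

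Rgs7bp was higher in Non-peptidergic (1.31), LTMR (1.00), CGRP-a (0.57) and Peptidergic.488p (0.54) in the authors' deposited table. Unlike Rgs7 it was also higher in the mural-like Unknown.3 (0.36, 72.0% of cells against 57.0%), where Rgs6 was higher and Rgs7 was in 1.7% of cells, in the authors' deposited table. In the other 6 Unknown clusters Rgs7bp was lower, from -2.11 to -1.53, and in Low.UMI.Pep (-0.64), in the authors' deposited table. Gnb5, the Gβ partner of the R7 proteins, was in 8.3% of Unknown.3 cells and lower there (-0.52) in the authors' deposited table. In Heat.sen, Rgs7, Rgs9 and Gnb5 were all higher, and Rgs7bp was not listed. Elsewhere these genes did not go together. In SST, where Gnb5 had its largest value, Rgs7 was lower. In Non-peptidergic, Cold.sen and CGRP-a, Rgs7 was higher and Gnb5 was not listed.

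Of the R12 family, Rgs10 had its largest values in Low.UMI.LTMR (1.81) and LTMR (1.77), followed by Low.UMI.Nonpep (1.39), Non-peptidergic (1.26) and Cold.sen (0.56), in the authors' deposited table. In CGRP-a (-1.45) and CGRP-e (-1.41) its values did not pass the filter, with transcripts in 98.3% and 98.1% of cells in the authors' deposited table. Rgs10 was lower in Low.UMI.Pep (-0.32) and 6 Unknown clusters (-2.12 to -1.42) and was not listed for the macrophage-like Unknown.488p in the authors' deposited table. Rgs12, a large multidomain member, was higher in CGRP-z (0.76, 93.5% of cells against 27.2%), Cold.sen (0.28) and CGRP-a (0.27) and lower in Low.UMI.LTMR, Unknown.488p and Peptidergic.488p (-0.29 to -0.28) in the authors' deposited table. Both listed genes of the RZ family, whose proteins prefer Gαz, had their largest value in CGRP-a. Rgs17 was at 0.97 in CGRP-a (99.3% of cells), 0.78 in Peptidergic.488p and 0.32 to 0.47 in 5 more neuron and Low.UMI clusters in the authors' deposited table. It was lower in Low.UMI.LTMR (-0.49), LTMR (-0.42), SST (-0.36) and all 7 Unknown clusters (-1.09 to -0.76) in the authors' deposited table. Yet Rgs17 was in 94.2% of LTMR cells against 41.8% of other cells and in 89.4% of SST cells against 41%. Its share was smaller than outside in Low.UMI.Pep (18.9% against 47.9%) and Low.UMI.Nonpep (20.7% against 46.8%), although these were called higher. Rgs20 was listed for CGRP-a (0.48, 61.1% of cells against 6.0%) and CGRP-e (0.26, 47.6% against 8.3%) in the authors' deposited table.

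Among the members, 4 pairs lie next to each other in the RefSeq gene order of assembly GRCm38.p6: Rgs5 with Rgs4 and Rgs8 with Rgs16 on chromosome 1, Gnaq with Gna14 on chromosome 19, and Rgs9 with Gna13 on chromosome 11. The neighbours Rgs5 and Rgs4 were both higher in Peptidergic.488p and LTMR. By fold change they parted in Non-peptidergic, with Rgs4 higher (1.36) and Rgs5 lower (-1.01) in the authors' deposited table. Yet Rgs5 was in 23.1% of Non-peptidergic cells against 11.7% of other cells, so by detection the pair did not part there. In Low.UMI.Nonpep Rgs4 was higher and in 62.7% of cells against 56.4% in the authors' deposited table. Rgs5 was lower there and in 1.3% against 13.7%. Gnaq and Gna14 were both higher in SST and Non-peptidergic, and differed in Unknown.488p, where Gnaq was at 0.77 and Gna14 at -0.84 in the authors' deposited table. Rgs8 and Rgs16 were higher in no cluster together. Rgs9 and Gna13 were both higher in CGRP-n (0.49 and 0.41 in the authors' deposited table), and Rgs9 was not listed for Unknown.488p, where Gna13 was higher.

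**Figure D4:**
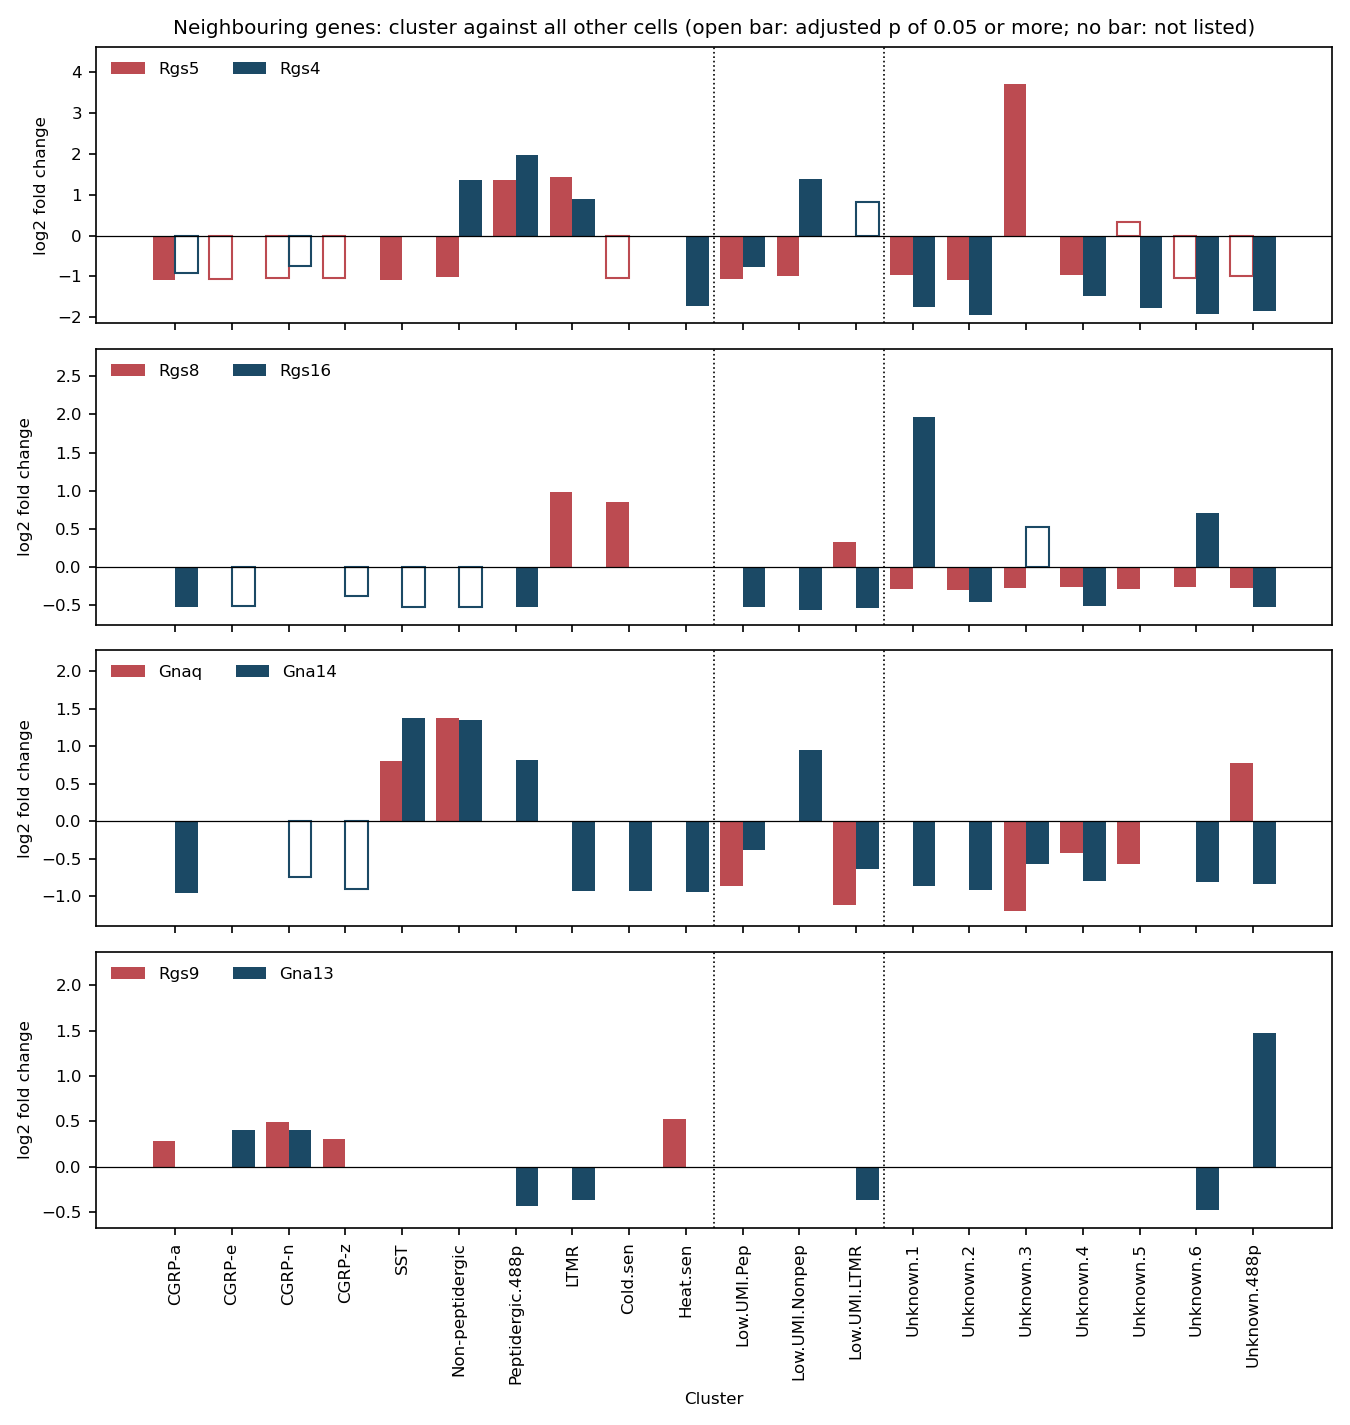
Log2 fold change (vertical axis) of 4 pairs of neighbouring genes in each cluster against all other cells, from the authors' deposited table; open bars did not pass an adjusted p of 0.05, and a missing bar was not listed. Rgs5 reaches 3.72 in Unknown.3, where Rgs4 has no bar, and Gnaq and Gna14 share their positive bars in SST and Non-peptidergic.

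The promoters of Rgs5, Rgs4, Gnaq and Gna14 are shown because both pairs are higher together in some clusters and part in others. Each is the stretch of 250 bases before the transcription start, 5′ to 3′ on the strand of the gene, from RefSeq on build GRCm38.p6, a build that may not be the one the authors used. Capitals mark a TATA box (TATAAA) or a GC box (GGGCGG), searched on both strands together with the CArG box of smooth-muscle genes. The motifs did not overlap. Rgs5 lies at chr1:169655251-169655500 on the plus strand and Rgs4 at chr1:169747643-169747892 on the minus strand. Gnaq lies at chr19:16132434-16132683 and Gna14 at chr19:16435417-16435666, both on the plus strand.
Rgs5: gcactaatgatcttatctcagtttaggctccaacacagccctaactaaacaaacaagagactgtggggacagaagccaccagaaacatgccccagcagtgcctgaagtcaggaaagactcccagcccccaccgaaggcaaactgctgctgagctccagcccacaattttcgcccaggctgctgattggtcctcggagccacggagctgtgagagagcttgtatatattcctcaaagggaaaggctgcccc
Rgs4: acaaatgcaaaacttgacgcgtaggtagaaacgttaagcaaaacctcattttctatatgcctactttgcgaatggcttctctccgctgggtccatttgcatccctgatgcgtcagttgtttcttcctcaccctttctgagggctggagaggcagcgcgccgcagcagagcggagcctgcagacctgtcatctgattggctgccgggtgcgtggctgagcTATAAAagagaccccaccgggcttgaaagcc
Gnaq: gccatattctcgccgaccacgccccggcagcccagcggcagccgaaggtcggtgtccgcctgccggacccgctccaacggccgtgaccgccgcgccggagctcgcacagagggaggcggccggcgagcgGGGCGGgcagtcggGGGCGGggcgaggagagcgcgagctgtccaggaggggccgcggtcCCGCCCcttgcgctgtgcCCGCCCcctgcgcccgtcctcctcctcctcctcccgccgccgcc
Gna14: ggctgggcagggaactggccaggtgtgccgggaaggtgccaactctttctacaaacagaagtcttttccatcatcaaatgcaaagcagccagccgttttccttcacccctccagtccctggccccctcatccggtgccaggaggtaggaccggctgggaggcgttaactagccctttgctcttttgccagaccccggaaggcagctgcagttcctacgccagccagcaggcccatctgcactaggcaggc

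Over all 32851 promoters of the RefSeq table, 12.4% held the TATA box in this window, 32.7% the GC box and 1.47% the CArG box, and the median number of CpG dinucleotides was 6. The Rgs4 window held 1 TATA box, which begins 31 bases before the start, and 13 CpG. The Rgs5 window held 4 CpG and no match to the 3 motifs. Within the other pair, the Gnaq window held 4 GC boxes and 37 CpG, while that of Gna14 held 7 CpG and no match. A match is a description of letters, and its use in these cells was not measured.

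Fold change and detection did not always go together, which bears on several values above. In the named neuron clusters 21 of the 46 lower pairs were detected more often inside the cluster than outside it, and 46.5% of the lower pairs of all genes were. In the Low.UMI clusters 12 of the 17 higher pairs were detected less often inside it, and 95.3% of the higher pairs of all genes were. The 5 that were also more frequent in a Low.UMI cluster were Gng3 in Low.UMI.Pep (74.5% against 67.5%), Rgs10 (73.7% against 67.0%), Rgs4 (62.7% against 56.4%) and Gna14 (28.5% against 23.8%) in Low.UMI.Nonpep, and Rgs10 in Low.UMI.LTMR (81.7% against 67.3%), in the authors' deposited table. In the Unknown clusters 0 of the 27 higher and 4 of the 135 lower pairs went against detection, where 4.53% of the higher and 1.04% of the lower pairs of all genes did. The median percentage over all listed genes was 84.9% in the named neuron clusters, 6.6% in the Low.UMI clusters and 16.65% in the Unknown clusters. The part of transcript number per cell in these differences was not tested.

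**Figure D5:**
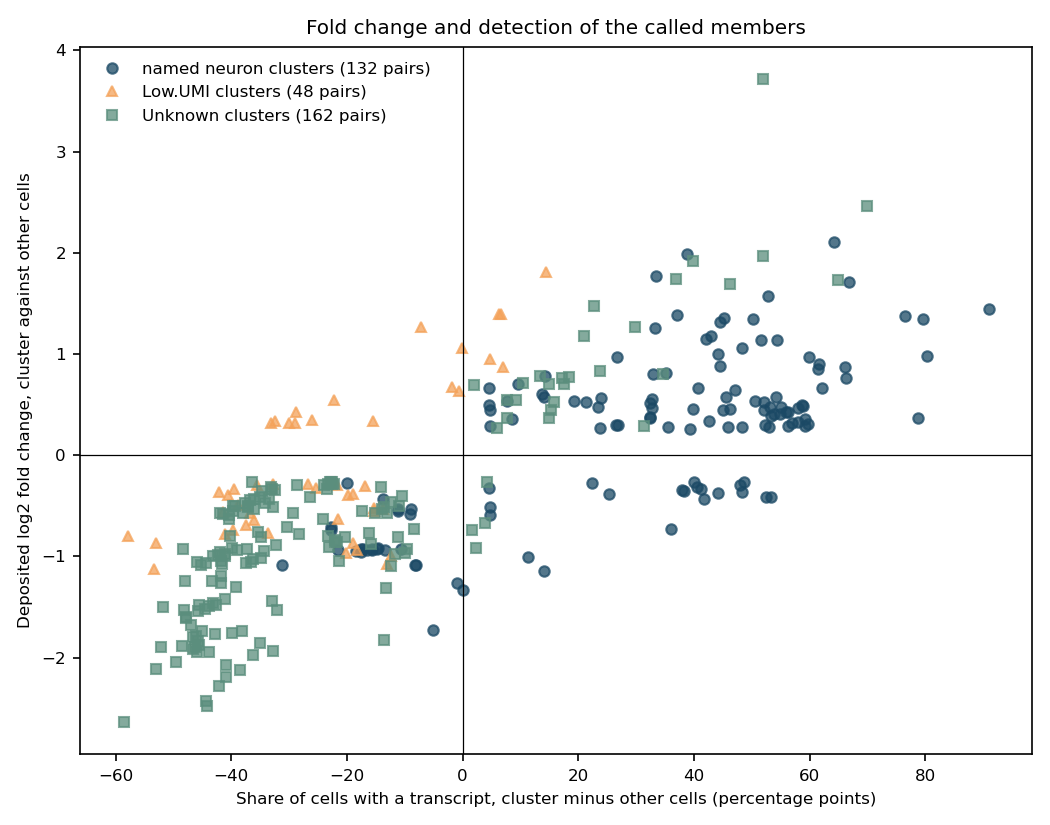
Log2 fold change (vertical axis) against the percentage of cells with a transcript, cluster minus other cells (horizontal axis), for the called pairs of gene and cluster from the authors' deposited table. Of the Low.UMI pairs above 0 on the vertical axis, 12 of 17 lie left of 0, and of the named neuron pairs below 0, 21 of 46 lie right of it.

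Genes that act beside or below G proteins were followed in a list of 36 symbols, among them receptor kinases, arrestins, exchange factors, adenylyl cyclases, phospholipases Cβ and G protein-gated potassium channels, of which 25 occurred in the table. In the named neuron clusters 42 of 250 pairs were higher (16.8%, against 10.9% of all genes) and 27 lower (10.8% against 6.72%). In the Low.UMI clusters 7 of 75 were higher (9.33% against 10.9%) and 18 lower (24% against 20.6%). In the Unknown clusters 14 of 175 were higher (8% against 10.2%) and 46 lower (26.3% against 27.1%). The Low.UMI and Unknown shares were thus near those of all genes. Plcb1, a phospholipase C activated by Gαq, had the largest value of the list, 3.58 in Unknown.1, and was at 0.95 in Unknown.4 and 0.93 in Heat.sen in the authors' deposited table. It was lower in 12 clusters (-1.81 to -0.51), among them Peptidergic.488p (-1.81), CGRP-a and SST (-1.77 each) and LTMR (-0.96), in the authors' deposited table. Plcb1 was in a smaller share of cells than outside in Peptidergic.488p (13% against 36.6%), CGRP-a (15.6% against 37.5%) and SST (30.8% against 36.2%). Its share was larger in LTMR (96.1% against 33.5%), Cold.sen (83.4% against 33.7%) and CGRP-n (74.8% against 34.4%), although these were called lower. Plcb4 was at 1.35 in Unknown.2, 1.13 in Unknown.6, 0.82 in Unknown.3 and 0.59 in Unknown.1 and lower in 7 clusters (-0.73 to -0.29), and Plcb3 at 1.01 in Non-peptidergic, 0.84 in Peptidergic.488p and 0.61 in SST, in the authors' deposited table. Gna14 was higher in these 3 neuron clusters too. Plcb3 was lower in 11 clusters, of which the named neuron ones were LTMR (-0.96), Cold.sen (-0.88), CGRP-n (-0.43) and CGRP-a (-0.36), in the authors' deposited table. Its share of cells was smaller than outside in LTMR (34.3% against 41%) and Cold.sen (32.8% against 41.1%). In CGRP-n (87.6% against 38.9%) and CGRP-a (85.1% against 37.2%) it was larger.

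Adcy2, an adenylyl cyclase stimulated by Gβγ together with Gαs, was higher in CGRP-z (0.98), Cold.sen (0.78), SST (0.73), CGRP-a (0.62), CGRP-n (0.52), CGRP-e (0.44) and Heat.sen (0.36) in the authors' deposited table. Adcy2 was lower in 10 clusters (-0.71 to -0.34), of which the named neuron ones were Non-peptidergic (-0.69), LTMR (-0.60) and Peptidergic.488p (-0.55), in the authors' deposited table. Kcnj6, a potassium channel opened by Gβγ, was in 92.6% of LTMR cells against 2.0% of other cells (0.54) in the authors' deposited table. Grk2, the receptor kinase recruited by Gβγ, was higher in Non-peptidergic (0.66), Low.UMI.LTMR (0.62), Low.UMI.Nonpep (0.48) and LTMR (0.47), and lower in SST (-0.47) and 6 Unknown clusters, in the authors' deposited table. Detection of Grk2 went against the calls in Low.UMI.LTMR (19.1% of cells against 45.1%), Low.UMI.Nonpep (18.8% against 47.7%) and SST (83.7% against 41.9%). Pde6d, a carrier of prenylated proteins, was higher in 7 neuron and Low.UMI clusters, led by Low.UMI.Nonpep (0.57), and lower in 7 (-0.90 to -0.33) in the authors' deposited table. Yet its share of cells was smaller than outside in Low.UMI.Nonpep (26.8% against 53.3%), Low.UMI.Pep (22.6% against 54.7%) and Low.UMI.LTMR (18.7% against 51.1%). In CGRP-a, called lower, it was larger (88.7% against 47.1%). Ric8a, a folding helper of Gα, was higher in SST (0.51) and Low.UMI.Pep (0.35) and lower in 8 clusters (-0.64 to -0.26) in the authors' deposited table. Detection of Ric8a went against the calls in Low.UMI.Pep (17.7% of cells against 49.5%) and in Cold.sen, called lower (77% against 43.6%).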

How the data were processed

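The deposited data were 1 table of cluster markers from 3′ single-cell RNA sequencing, made with Seurat per the submitters' processing notes. Aligner, genome build, cell filters, doublet removal and the name of the test were not given in the sources used here. Per the file headers, the authors deposited a p-value and an adjusted p-value for each gene and cluster. The authors' log2 fold change sets a cluster over the remaining cells. The deposited fractions of cells with a transcript, inside and outside the cluster, are printed here as percent. Every listed p-value was at most 0.00999966, every absolute log2 fold change at least 0.25, and the larger fraction at least 10%. The adjusted p-value was 32285 times the p-value, up to 1.

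Python 3.11.15, pandas 2.3.3 and numpy 2.4.6 were used. Genes were taken by symbol and called at an adjusted p-value under 0.05, and no test was added, because the table has no samples. Cluster sizes were solved by least squares from the fractions of 6742 genes (residual 0.0256 percentage points), a step tested on simulated data. Depth per cell is unknown. Called values were given, singly or as a range over clusters, for genes with a called absolute log2 fold change of 1.5 or more, and per role for the 2 with the largest called value and the 1 listed most. The genes and lists were chosen with earlier results of these data known, and the neighbouring pairs, promoters and motifs after their values were seen. Alternatives were other limits on fold change, adjusted p-value, detection and the fit of cluster sizes.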

Additional observations from a re-analysis of the deposited data

How the results depend on the processing

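No paired analysis was possible because the table holds no sample columns, and for the same reason no replicate could be left out. With an absolute log2 fold change of at least 0.5, the higher and lower pairs numbered 47 and 29 in the named neuron clusters and 10 and 19 in the Low.UMI clusters. At 1 or more they numbered 19 and 8 in the named neuron clusters, 5 and 2 in the Low.UMI clusters, and 10 and 59 in the Unknown clusters, with 19 genes higher and 16 lower in at least 1 cluster. Such limits leave fewer pairs by construction. Counting a pair only where the share of cells moved the same way left 25 lower pairs in the named neuron clusters, against 46, and 5 higher pairs in the Low.UMI clusters, against 17. With an adjusted p-value under 0.001, all 8 of these counts stayed within 1.5 times. Solving cluster sizes from genes that differ by 20 percentage points or more moved the share of all cells of each of the 42 genes by less than 0.05 percentage points. Without cell numbers or counts, no interval could be given for a percentage.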
